A study of Mus musculus with 18 samples.

Results

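Paired immunoglobulin-like receptors and CD300 receptors are surface proteins of myeloid cells with immunoglobulin domains outside the cell. Inhibitory members carry tyrosine motifs in their tails that recruit phosphatases such as Ptpn6, and activating members have short tails and signal through adaptors such as Fcer1g and Tyrobp. In eosinophils they are known for setting how readily the cells are activated, and the mouse Pira and Pirb genes lie in a cluster of near-identical copies. Gm14548, Pirb, Pira2, Pilra, Lilrb4a, Cd300a, Cd300lb, Cd300lf and Cd300ld, 9 symbols in all, were taken by name from a deposited expression table. They gave 10 of its 22708 rows, since 2 rows with different Entrez identifiers both carry the symbol Gm14548. The set was chosen by the values of WT against Ahr-KO, in which Gm14548 was higher in Ahr-KO samples, and all 10 rows are described in that comparison without a test.

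Eosinophils were sorted from the small intestine as CD11b+ MHC-II- SiglecF+ SSChi cells, and their RNA was sequenced in bulk in 18 samples. All are labelled C57/BL6, and 6 are wild type (WT), 6 Ahr-KO and 6 Ahrr-KO. The knockouts are named for the genes of the ligand-activated aryl hydrocarbon receptor and of its repressor. Each genotype has 3 female samples (F1 to F3) and 3 male samples (M1 to M3), the mice of the study were 6 to 14 weeks old, and no treatment is labelled. According to the methods, Ahr-KO and WT mice were neither littermates nor cohoused, so litter and housing cannot be told apart from genotype. The comparisons ask how a genotype labelled for loss of the receptor, or of its repressor, is reflected in the eosinophil transcriptome.

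The deposited values are the authors' variance-stabilized expression on a log2 scale, on which 5.02 stands for a count of 0, and levels and differences below are on that scale unless another is named. Samples held from 3842977 to 8149200 counts in WT with a median of 6022410, from 6581818 to 10284124 in Ahr-KO with a median of 9647590, and from 8788867 to 12046933 in Ahrr-KO with a median of 10371556. WT was therefore the shallowest group, and its low counts are the least precise. A few libraries stood apart. A count was present for 20244 genes in WT F3 and 19694 genes in Ahr-KO F3, against 15146 to 17236 in the other 16 samples. Ahrr-KO M3 was the lowest sample of its group in 8 of the 10 receptor rows and the lowest of all 18 samples in 7. Without the F3 libraries of WT and Ahr-KO, left out after the data were seen, the number of genes called between these genotypes was 586 in place of 1003.

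The targeted genes did not fall in their labelled knockouts. Ahr, on chromosome 12 of GRCm38 from 35497979 to 35534989, ranged from 13.40 to 14.40 in WT (median 13.76), from 14.15 to 14.67 in Ahr-KO (median 14.55) and from 13.03 to 14.42 in Ahrr-KO (median 13.51). The Ahr transcript was thus no lower in samples labelled Ahr-KO, by a difference of 0.61 (SE 0.19, adjusted p = 0.0557 from limma). Ahrr, on chromosome 13 from 74211118 to 74292331, ranged from 9.79 to 10.39 in WT (median 10.12), from 9.95 to 10.93 in Ahrr-KO (median 10.37) and from 5.02 to 5.79 in Ahr-KO (median 5.25). It was not lower in samples labelled Ahrr-KO (difference 0.28, SE 0.18, adjusted p = 0.683 from limma), and 3 of the 6 lay above the highest WT sample. In samples labelled Ahr-KO, Ahrr had counts of 0 to 10 against 550 to 1024 in WT, a difference of -4.83 (SE 0.14, adjusted p = 4.95e-12 from limma) with all 6 below the lowest WT sample. Which parts of Ahr and Ahrr were deleted is not given, and without that a gene's total count cannot show its loss. The paper counts Ahrr among the canonical targets of the receptor. It reports by qPCR that Ahrr was missing in sorted intestinal eosinophils of other mice, with Ahr deleted in eosinophils only. It also reports a strong difference in the canonical pathway of the receptor between WT and Ahr-KO eosinophils. That result comes from the same WT and Ahr-KO sequencing described here, so it is not separate evidence on the labels. An exchange of labels was not tested. Both genotypes are used as labelled here, and every direction below is between samples so labelled.

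Gm14548 (Entrez 100038909), a gene of the activating Pira type on chromosome 7 from 3884201 to 3898159, ranged from 9.53 in WT F1 to 10.31 in WT F2 with a median of 9.87. In samples labelled Ahr-KO it ranged from 11.60 in M2 to 12.01 in F3 with a median of 11.82. The groups did not overlap, and the lowest Ahr-KO sample was more than 1 log2 unit above the highest WT sample. In samples labelled Ahrr-KO it ranged from 8.79 in M3 to 10.30 in F2 with a median of 9.69, within or below the WT range. The difference of means between Ahr-KO and WT was 1.92, and it was 1.97 among females and 1.87 among males. In normalized counts, the counts divided by the authors' size factor of each sample, the WT mean of 922 ± 229 compared with 3602 ± 391 in Ahr-KO (SD, n = 6 each), a 3.91-fold difference. These are the values that led to the choice of the receptors. In bulk RNA, a change in how many cells express a gene and a change in RNA per cell cannot be told apart.

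The second row named Gm14548 (Entrez 18729) moved the other way. RefSeq held no gene under this identifier, and GENCODE ties it to Gm15931, annotated as an unprocessed pseudogene on the same chromosome. Its values ranged from 8.01 in M1 to 8.33 in F2 in WT (median 8.15), from 6.28 in M1 to 6.98 in F3 in Ahr-KO (median 6.68) and from 7.48 in M3 to 8.49 in M1 in Ahrr-KO (median 7.95). All 6 samples labelled Ahr-KO lay below all 6 WT samples with a gap of 1.03, while the Ahrr-KO values overlapped with WT. The difference between Ahr-KO and WT was -1.48 on the deposited scale, which compresses low counts, and -2.23 on log2(normalized count + 1). Its mean normalized count was 4.58-fold lower in Ahr-KO, 49.0 ± 15.2 against 225 ± 26.3 (SD, n = 6 each), from 23 to 74 counts per sample against 102 to 198. Of the 10 receptor rows, these 2 were the ones without overlap between WT and Ahr-KO, where 4.51% of 11346 genes tested had none, and the set was chosen on this contrast.

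**Figure D1:**
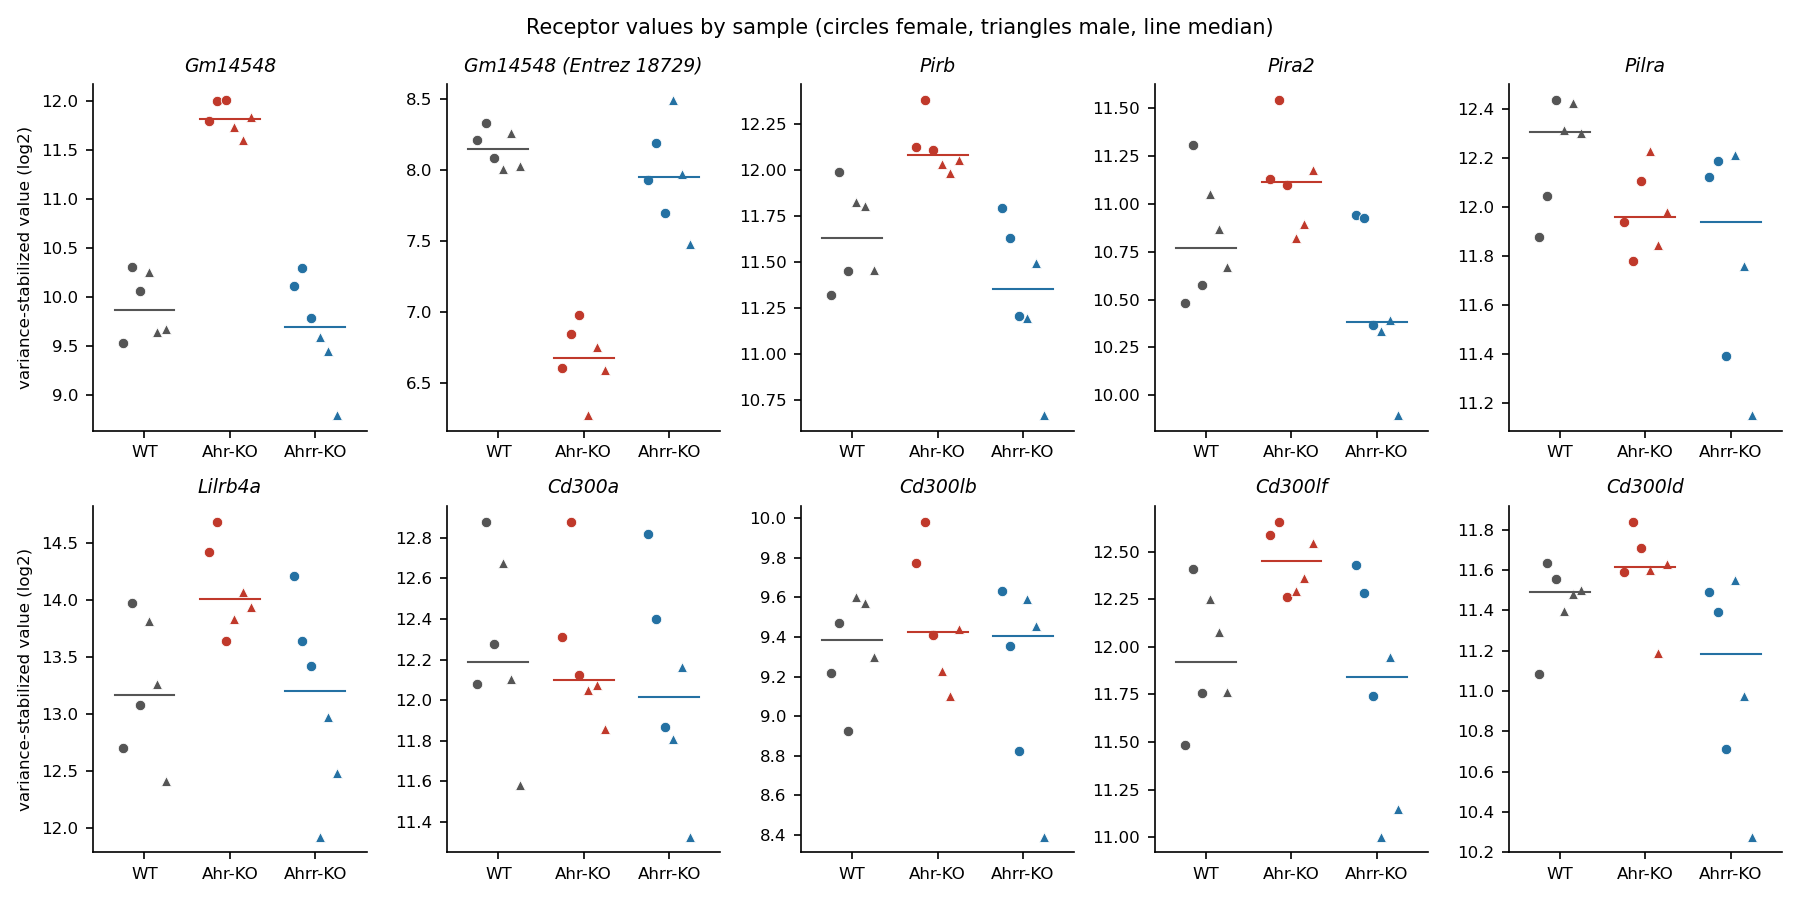
Variance-stabilized value (log2) of the 10 receptor rows in each of the 18 samples, by labelled genotype, with circles for females, triangles for males and a line at the median. Gm14548 lies between 11.60 and 12.01 in the Ahr-KO samples and at or below 10.31 in WT, its Entrez 18729 row lies at or below 6.98 against at least 8.01, and in the other 8 rows the groups overlap.

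The transcripts of these genes are so alike that reads can be shared between them. Over 2119 aligned bases the Gm14548 transcript was 97.8% identical to Pira2, over 1936 bases 97.3% identical to Pirb, and over 1852 bases 96.6% identical to the transcript of the Entrez 18729 row. The sequences of the coding window in exon 6 where Gm14548 and the Entrez 18729 row differ most, 120 bases in GENCODE transcripts of GRCm38, show what can separate their reads. They are at chr7:3895230-3895349 (minus strand) for Gm14548, chr7:4281300-4281419 (plus strand) for the Entrez 18729 row, chr7:3717281-3717400 (minus strand) for Pirb and chr7:3842166-3842285 (minus strand) for Pira2. Capitals in the Gm14548 line mark the 12 bases that differ from the Entrez 18729 row, and capitals in the other lines mark bases that differ from Gm14548.
Gm14548: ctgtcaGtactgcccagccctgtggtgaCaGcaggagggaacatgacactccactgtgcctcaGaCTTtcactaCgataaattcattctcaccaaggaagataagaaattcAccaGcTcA
Gm14548 (Entrez 18729): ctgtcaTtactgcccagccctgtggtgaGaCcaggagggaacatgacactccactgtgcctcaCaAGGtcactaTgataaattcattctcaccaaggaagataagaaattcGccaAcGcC
Pirb: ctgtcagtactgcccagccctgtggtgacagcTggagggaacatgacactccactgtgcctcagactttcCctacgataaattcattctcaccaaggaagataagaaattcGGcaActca
Pira2: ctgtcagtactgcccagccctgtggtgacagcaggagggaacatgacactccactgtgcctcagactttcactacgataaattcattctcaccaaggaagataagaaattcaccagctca

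In that window Pirb differs from Gm14548 at 5 bases and Pira2 at 0, so a read within it cannot be assigned between Gm14548 and Pira2. The longest coding stretch that is the same in all 4 genes is 169 bases in exon 8, at chr7:3893981-3894149 (minus strand) in Gm14548, longer than 75 bases, the shortest read length stated.
Shared stretch: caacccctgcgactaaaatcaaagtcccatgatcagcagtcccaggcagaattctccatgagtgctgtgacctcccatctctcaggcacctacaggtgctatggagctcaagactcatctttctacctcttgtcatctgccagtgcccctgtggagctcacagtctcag

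Of the 2054 stretches of 75 bases in the Gm14548 transcript, 59.3% occur in transcripts of other genes, among them Pira2 with 944, Gm15922 with 743, Pirb with 666 and Gm15931 with 247. The share was 88.3% for Pira2, mostly with Gm15922 (Pira1 in RefSeq), which has no row of its own in the table. It was 26.9% for Pirb and 22.3% for the Entrez 18729 row. Values of these 4 rows are therefore uncertain as far as reads in shared stretches were split between copies, and the split cannot be read from the deposited values.

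Pirb, the inhibitory member of the family, on chromosome 7 from 3712505 to 3720382, ranged from 11.32 in F1 to 11.99 in F2 in WT with a median of 11.63. In Ahr-KO it ranged from 11.98 in M2 to 12.38 in F2 with a median of 12.08. In Ahrr-KO it ranged from 10.67 in M3 to 11.80 in F1 with a median of 11.35. All but 1 of the Ahr-KO samples lay above the highest WT sample, and the Ahrr-KO samples lay within or below the WT range. The difference between Ahr-KO and WT was 0.47, a 1.38-fold difference in mean normalized count.

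Pira2, an activating member from 3836808 to 3845104 on the same chromosome, ranged from 10.48 in F1 to 11.31 in F2 in WT (median 10.77), from 10.82 in M1 to 11.54 in F2 in Ahr-KO (median 11.11) and from 9.90 in M3 to 10.94 in F1 in Ahrr-KO (median 10.38). The groups overlapped, with all 6 Ahr-KO samples above the WT median but only 1 above the highest WT sample. The difference between Ahr-KO and WT was 0.28, a 1.22-fold difference in mean normalized count, and F2 was the highest sample both in WT and in Ahr-KO.

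The normalized counts of the 4 rows were added in each sample, so that reads divided among them would count the same however they were divided. Reads shared with genes outside the sum, such as Pira1 and Lilra6, or shared reads that were discarded, would still affect it, and how shared reads were handled is not known. The sum ranged from 4772 in F1 to 7932 in F2 in WT (median 5851), from 8929 in M2 to 12269 in F2 in Ahr-KO (median 10110) and from 2950 in M3 to 6625 in F1 in Ahrr-KO (median 4726). All 6 Ahr-KO sums lay above all 6 WT sums, and 1.69-fold was the ratio of their geometric means (log2 difference 0.76). The Ahrr-KO sums overlapped with WT at a log2 difference of -0.32, which was -0.18 without Ahrr-KO M3. These sums are described without a test, since their genes were chosen with results known.

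Within the sum, the shares of the members differed between the labelled genotypes. These shares and ratios rest on the Gm14548 values that led to the choice of the receptors, and they add no separate result. A lower share of Pirb is not a lower count, as its mean normalized count was 1.38-fold higher in Ahr-KO. Gm14548 made up 11.7 to 18.5% of it in WT, 32.8 to 38.3% in Ahr-KO and 12.9 to 18.6% in Ahrr-KO. Pirb made up 50.4 to 55.7% in WT, 41.0 to 44.7% in Ahr-KO and 48.5 to 57.3% in Ahrr-KO. Gm14548 thus had 0.211 to 0.367 times the normalized count of Pirb in WT and 0.765 to 0.933 times in Ahr-KO. The ratio of Gm14548 to its Entrez 18729 row lay between 2.87 and 5.88 in WT, between 57.9 and 128 in Ahr-KO and between 2.39 and 5.73 in Ahrr-KO. In both ratios the Ahr-KO samples stood apart and the Ahrr-KO samples overlapped with WT.

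**Figure D2:**
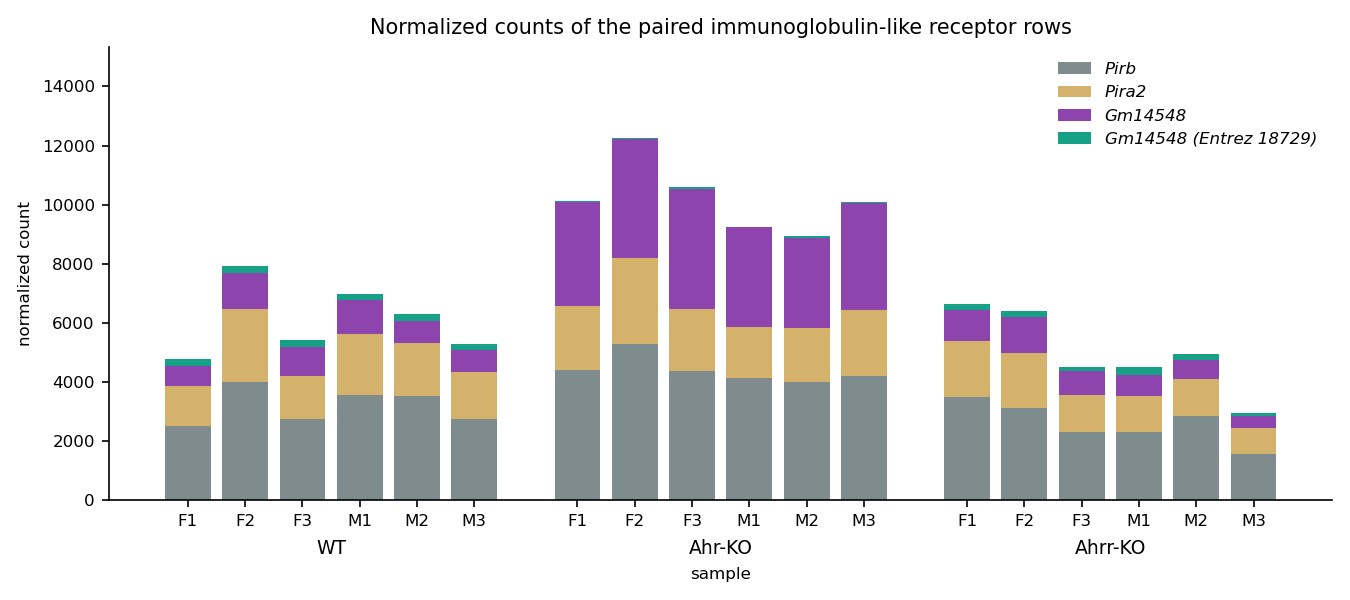
Normalized counts (vertical axis, linear from 0) of Pirb, Pira2, Gm14548 and the Entrez 18729 row, stacked for each of the 18 samples. The stacks reach 4772 to 7932 in WT, 8929 to 12269 in Ahr-KO and 2950 to 6625 in Ahrr-KO, and the Gm14548 part is largest in the Ahr-KO samples.

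Lilrb4a, an inhibitory receptor related to the human LILRB family, lies on chromosome 10 from 51490898 to 51496613. It ranged from 12.41 in M3 to 13.97 in F2 in WT (median 13.17), from 13.64 in F3 to 14.68 in F2 in Ahr-KO (median 14.00) and from 11.92 in M1 to 14.21 in F1 in Ahrr-KO (median 13.20). All 6 Ahr-KO samples were above the WT median and 3 above the highest WT sample, and the Ahrr-KO samples reached both below and above the WT range. The difference between Ahr-KO and WT was 0.89, a 1.78-fold difference in mean normalized count. Of its stretches of 75 bases, 40.3% occur in other genes, mainly Gm49339 and Lilr4b, so its values carry the same uncertainty.

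Pilra, an inhibitory receptor with tyrosine motifs on chromosome 5 from 137821952 to 137836278, was the one coding member whose 6 Ahr-KO samples all lay below the WT median. It ranged from 11.88 in F1 to 12.44 in F3 in WT (median 12.31), from 11.78 in F2 to 12.23 in M1 in Ahr-KO (median 11.96) and from 11.15 in M3 to 12.21 in M1 in Ahrr-KO (median 11.94). The Ahrr-KO samples, too, were all below the WT median, and both ranges overlapped with WT. The difference between Ahr-KO and WT was -0.26, a mean normalized count 1.20-fold lower in Ahr-KO. Of its stretches, 14.7% occur in other genes, mostly in Zcwpw1.

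The 4 CD300 members lie in a cluster on chromosome 11, with other CD300 genes between them. Cd300lf, an inhibitory receptor from 115116214 to 115135372, ranged from 11.48 in F1 to 12.41 in F2 in WT (median 11.92), from 12.26 in F3 to 12.66 in F2 in Ahr-KO (median 12.45) and from 11.00 in M1 to 12.43 in F1 in Ahrr-KO (median 11.84). All 6 Ahr-KO samples were above the WT median and 3 above the highest WT sample, and the Ahrr-KO samples covered more than the WT range. The difference between Ahr-KO and WT was 0.49, a 1.39-fold difference in mean normalized count. Cd300lf lies within the bounds of Rab37 (115091331 to 115162773). Where exons of both genes overlap, reads cannot be told apart without strand. In the search for shared stretches of read length, Cd300ld was the only partner of Cd300lf, with 60 stretches. None was shared with Rab37, and shorter overlaps of exons were not examined.

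Cd300a, an inhibitory receptor of eosinophils and mast cells from 114889152 to 114901946, ranged from 11.58 to 12.88 in WT (median 12.19), from 11.86 to 12.88 in Ahr-KO (median 12.10) and from 11.33 to 12.82 in Ahrr-KO (median 12.01). The highest sample was F2 in WT and Ahr-KO and F1 in Ahrr-KO, and the ranges lay almost on top of each other. Its difference between Ahr-KO and WT was -0.05, and the sign turned when WT F2 (0.04), WT M1 (0.08) or Ahr-KO F3 (0.01) was left out. Without WT M3 it was -0.16. Cd300lb and Cd300ld, both of the activating kind, differed by 0.14 and 0.15, and single samples moved both: Cd300lb to 0.04 without WT F3 or Ahr-KO F2, and Cd300ld to 0.06 without WT F1. Without Ahr-KO M2 they differed by 0.22 and 0.23. Cd300lb, from 114922779 to 114934371, ranged from 8.93 to 9.60 in WT, from 9.10 to 9.98 in Ahr-KO and from 8.39 to 9.63 in Ahrr-KO. Cd300ld, from 114982443 to 114989886, ranged from 11.08 to 11.63 in WT, from 11.19 to 11.84 in Ahr-KO and from 10.28 to 11.55 in Ahrr-KO. Both overlapped in every comparison, with M3 the lowest Ahrr-KO sample. Few reads of the CD300 members can be shared: 1.79% of the stretches of Cd300a, 1.12% of Cd300lf, 2.33% of Cd300ld and 0% of Cd300lb occur in other genes.

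Levels of the genes were compared per kilobase of transcript, as mean normalized count per kilobase over the 6 WT samples. Lilrb4a was highest at 7309 ± 3071 (SD, n = 6), followed by Cd300lf at 2126 ± 519, Pilra at 1863 ± 279, Cd300a at 1092 ± 351, Cd300ld at 1035 ± 132 and Pirb at 830 ± 156. Pira2 at 517 ± 121 and Gm14548 at 433 ± 108 came next, then Cd300lb at 207 ± 38.5 and the Entrez 18729 row at 121 ± 14.2. Cd300lf and Pilra lay within each other's spread, as did Cd300a and Cd300ld, and Pira2 and Gm14548. In Ahr-KO, Gm14548 reached 1693 ± 184 per kilobase, above Pirb (1147 ± 119) and Pira2 (628 ± 120). The order against Pirb rests on the lengths used, those of the longest coding transcripts, 2128 bases for Gm14548 and 3824 for Pirb. In mean normalized count Gm14548 was below Pirb in Ahr-KO, 3602 against 4388, and shared reads leave both values uncertain.

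The comparison of WT with Ahrr-KO was not used to choose the receptors, though it shares the 6 WT samples with the one that was. It asks how the receptors stand in samples labelled for loss of the repressor. None of the 10 rows passed the test (limma with sex as covariate, Benjamini-Hochberg adjusted p under 0.05 over 11546 genes), where 0.0779% of the genes tested were called, 9 genes in all. At an unadjusted p under 0.05 the count was 0 of the 10 rows and 853 of all genes, and limma voom on recovered counts also called 0 of the 10. In a single simulation of counts with a preset dispersion the fit recovered a fraction of 0.53 of true 2-fold differences between these genotypes. In 0 of the 10 rows were the groups without overlap, against 0.459% of all genes. The lowest unadjusted p was 0.0559 for Pilra, at -0.43 (SE 0.21, 95% confidence interval -0.87 to 0.01, adjusted p = 0.671), with 6 of 6 samples below the WT median.

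All 10 differences between Ahrr-KO and WT were below 0, between -0.43 for Pilra and -0.10 for Lilrb4a, beside a median of 0.01 over all genes tested. Split by sex, all 10 were below 0 in males (-0.70 to -0.12), while in females 4 were above 0: Lilrb4a at 0.51, Cd300lf at 0.27, Gm14548 at 0.10 and Cd300lb at 0.06, against -0.70, -0.66, -0.58 and -0.35 in males. Gm14548 differed by -0.24 (SE 0.20, 95% confidence interval -0.67 to 0.20, adjusted p = 0.740 from limma), Pirb by -0.31 (SE 0.19, -0.72 to 0.10, adjusted p = 0.682) and Pira2 by -0.35 (SE 0.19, -0.76 to 0.06, adjusted p = 0.671). Intervals of this width do not show that the receptors were at the WT level: for Pirb, the lower bound is larger in size than the difference described for Ahr-KO. For Gm14548 the upper bound was 0.20. The 1.92 described for Ahr-KO led to the choice of the receptors and shares the WT samples, and Ahr-KO was not tested against Ahrr-KO. Single samples decided much of their size. Without Ahrr-KO M3 the difference was -0.09 for Gm14548 and for its Entrez 18729 row, -0.18 for Pirb, -0.28 for Pilra and -0.21 for Cd300ld. Those of Cd300a and Cd300lf, both -0.20, became -0.06 without WT M1 and -0.07 without Ahrr-KO M1. Other samples moved differences away from 0: Gm14548 to -0.37 and Cd300lf to -0.34 without WT F1. The Entrez 18729 row moved to -0.32 without Ahrr-KO M1, and Cd300a to -0.32 without Ahrr-KO F1. The Lilrb4a difference (SE 0.33, -0.80 to 0.60, adjusted p = 0.933) turned to 0.12 without WT M1 and to 0.09 without Ahrr-KO M1, and that of Cd300lb (-0.14, SE 0.21, adjusted p = 0.842) to 0.05 without Ahrr-KO M3.

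**Figure D3:**
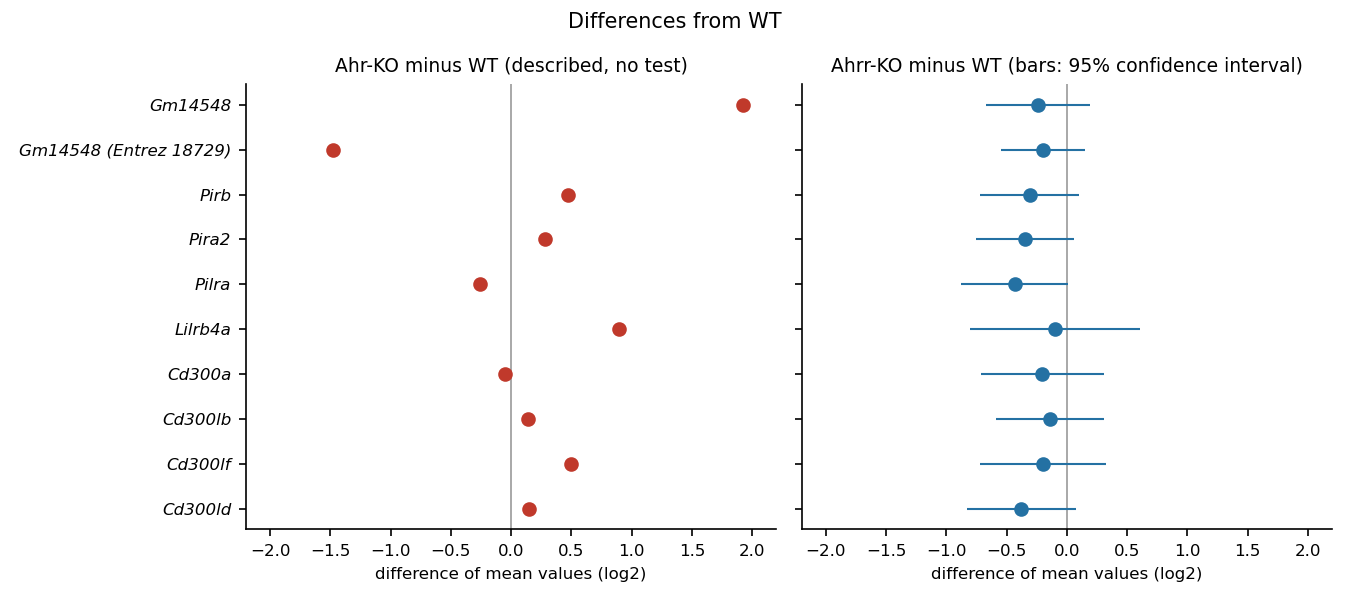
Difference of mean variance-stabilized values (log2) from WT for the 10 receptor rows, for Ahr-KO (left, described without a test) and Ahrr-KO (right, bars are 95% confidence intervals from limma), with both panels sharing the 6 WT samples. On the left, Gm14548 lies at 1.92 and its Entrez 18729 row at -1.48 with the other rows between -0.26 and 0.89, and on the right all points lie between -0.43 and -0.10 with intervals that include 0.

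The spread between samples was also compared. The SD over 6 samples was larger in Ahrr-KO than in WT in 10 of 10 rows, with a median of 0.50 over the rows against 0.29 in WT and 0.23 in Ahr-KO. Ahrr-KO M3 decided part of this: without it the median was 0.35, and the SD was larger than in WT in 7 of 10 rows. Over all genes tested the median SD was 0.32 in Ahrr-KO, 0.26 in WT and 0.21 in Ahr-KO, so the order was the same for the genes in general. Ahrr-KO F1 was the highest sample of its group in 6 of the 10 rows and M3 the lowest in 8, and M3 lay a median of 0.66 below its group's mean. In WT, F2 was the highest sample in 8 rows and F1 the lowest in 6. Ahr-KO F2 was the highest of all 18 samples in 7 rows. These spreads were compared as descriptions, without a test.

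Between the sexes, over all 18 samples with genotype as covariate, 0 of the 10 rows passed the test, where limma called 3.06% of 11468 genes. At an unadjusted p under 0.05 there were 3 of the 10 rows and 2145 of all genes, and voom called 0 of the 10. These 3 were lower in males: Gm14548 with a mean of 10.29 in males and 10.66 in females (male minus female -0.37, SE 0.14, adjusted p = 0.175 from limma), Lilrb4a with 13.19 and 13.75 (-0.56, SE 0.24, adjusted p = 0.219) and Cd300a with 11.96 and 12.40 (-0.44, SE 0.17, adjusted p = 0.166). Quantile normalization gave -0.29 for Lilrb4a and -0.26 for Cd300a. The other 7 rows differed by -0.25 to 0.04, and the signs of Pirb, Pilra and Cd300lb turned in some alternatives.

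Whether the genotype differences themselves depended on sex was tested by an interaction term. It called 0.0% of the genes for Ahr-KO and 0.0% for Ahrr-KO, with 533 and 544 genes at an unadjusted p under 0.05 in limma, and voom also called 0. In simulated counts of this design the interaction test recovered a fraction of 0.01 and 0.02 of true 2-fold differences, so a count of 0 says little about moderate effects. These fractions come from a single simulation per comparison with a preset dispersion. Among the receptors, Cd300lf had an unadjusted p of 0.0499 for Ahrr-KO (adjusted p = 0.727 from limma), with a difference from WT of 0.27 in females and -0.66 in males. For Ahr-KO the receptors are described without a test, and Cd300lb differed from WT by 0.52 in females and -0.23 in males.

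Other genes of the same kinds were followed through named lists, and in WT against Ahr-KO limma called 8.84% of 11346 genes, 5.16% higher and 3.68% lower in Ahr-KO, with a median difference of -0.00 over all genes tested. Of 22 further symbols listed for paired immunoglobulin-like and related receptors, some of them names of the same gene, 8 rows were found and 6 could be tested. Gm15931, counted among those not found, is the gene of the Entrez 18729 row. Lilra6, an activating receptor beside Gm14548 on chromosome 7, was the 1 called, higher by 0.41 (SE 0.12, adjusted p = 0.0479 from limma), and the median of the 6 was 0.25. The Lilra6 call was lost in 9 of 12 fits without 1 sample, all but those without WT F2, WT M1 or Ahr-KO M2, with an adjusted p of up to 0.124, and it was lost in 8 of 12 other alternatives. The most abundant by normalized count were Lilr4b, listed under its older name Gp49a (difference 0.71, adjusted p = 0.0825), Lair1 (0.16, adjusted p = 0.404) and Pilrb2 (-0.29, adjusted p = 0.131). In Ahrr-KO against WT, 0 of the 6 were called and their median was -0.33. Of 9 other CD300 receptors, 6 had a row, 4 of them below the minimum mean, and the remaining Cd300c2 and Cd300c were not called in either comparison (0.07 and 0.40 in Ahr-KO, adjusted p = 0.782 and 0.159).

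Further receptors, listed for inhibitory tyrosine motifs though their tail sequences were not examined here, went both ways in samples labelled Ahr-KO. Of 20 listed, 18 had a row and 13 were tested, and 4 were higher and 4 lower at a median of 0.37. Clec12a, a C-type lectin, rose from 8.11 ± 0.20 to 9.88 ± 0.24 (SD, n = 6 each; difference 1.76, SE 0.12, adjusted p = 1.27e-07 from limma) and Fcgr2b, the inhibitory Fc receptor, by 0.81 (SE 0.15, adjusted p = 0.00191). Siglece rose by 0.66 (adjusted p = 0.00824) and Cd33 by 0.46 (adjusted p = 0.0354), both sialic acid receptors. The call of Cd33 was lost in 9 of 12 fits without 1 sample, all but those without WT F2, WT M1 or Ahr-KO M2, with an adjusted p of up to 0.0921. Ceacam1, an adhesion receptor, was lower by -1.11 (SE 0.24, adjusted p = 0.00771) and Pecam1, an adhesion receptor of leukocytes and endothelium, by -0.63 (SE 0.10, adjusted p = 0.00116). Milr1, the mast cell receptor allergin, was lower by -0.59 (adjusted p = 0.0176) and Sirpa, the receptor for Cd47, by -0.44 (adjusted p = 0.0170). Sirpa, Ceacam1, Siglece and Cd33 were not called when all 18 samples shared 1 fit, nor Milr1 and Cd33 without both F3 libraries, nor Cd33 with no minimum mean. Siglecf, the sorting marker, differed by 0.37 (adjusted p = 0.0529). In Ahrr-KO, 0 of the 13 were called, at a median of -0.30.

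Adaptors, kinases and phosphatases that these receptors signal through came next. Of 22 listed, 21 were tested in WT against Ahr-KO, and 2 were called higher and 0 lower at a median of 0.13. Hcst, an adaptor of activating receptors, was higher by 0.60 (SE 0.13, adjusted p = 0.0103 from limma) and Dok3, an inhibitory adaptor, by 0.45 (SE 0.11, adjusted p = 0.0230). The call of Dok3 was lost without WT F3 or without Ahr-KO F1, F2, F3 or M3 (adjusted p of up to 0.0621), and those of both genes without the 2 F3 libraries. Hcst was not tested under the stricter minimum mean, and Dok3 was not called when all 18 samples shared 1 fit. The most abundant members were Tyrobp (0.22, adjusted p = 0.422), Lcp2 (0.22, adjusted p = 0.291) and Syk (0.13, adjusted p = 0.746). All 22 were tested in Ahrr-KO and 0 were called, at a median of -0.11.

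Known or proposed ligands and partners, among them class I histocompatibility and myelin proteins, had 14 rows of 15 listed and 13 tested. Mag, a myelin ligand of Pirb, was called, higher by 0.61 in Ahr-KO (SE 0.14, adjusted p = 0.0122 from limma), with mean normalized counts of 65.8 and 126. It was not tested under the stricter minimum mean and not called without both F3 libraries. The median of the 13 was -0.06. B2m, H2-K1 and H2-D1, the most abundant, differed by 0.06, -0.06 and -0.01 (adjusted p = 0.839, 0.856 and 0.980). In Ahrr-KO 0 of the 13 were called, at a median of 0.07. Between the sexes H2-K1 was lower in males by -0.60 (adjusted p = 0.0345), a call lost with no minimum mean, under quantile normalization (-0.39) and in 9 of 18 fits without 1 sample: WT F2 or M3, Ahr-KO F1, F2, M1 or M2, or Ahrr-KO F1, F2 or M3 (adjusted p of up to 0.0843).

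The sorted cells were checked against marker genes. Of 11 eosinophil markers, all in the table, Alox15 had the highest mean normalized count (18966), and Ccr3, Il5ra and Siglecf were present, whereas the granule genes Epx, Prg3, Ear1, Ear2 and Ear6 lay below the minimum mean. Their summed normalized count ranged from 30636 to 45190 in WT, from 40330 to 52281 in Ahr-KO and from 17190 in M3 to 47427 in F2 in Ahrr-KO. Of the 6 tested, 2 were called higher and 1 lower in Ahr-KO, and 0 were called in Ahrr-KO. In Ahr-KO, Prg2, a granule protein gene, was higher by 2.30 (SE 0.17, adjusted p = 3.47e-07 from limma) and Alox15 by 0.58 (adjusted p = 0.0230). Csf2rb, the shared chain of several growth factor receptors, was lower by -1.45 (SE 0.12, adjusted p = 1.39e-06). The call of Alox15 was lost without WT M3 or without Ahr-KO F1, F2, F3 or M3 (adjusted p of up to 0.0589), with no minimum mean, with all 18 samples in 1 fit and without both F3 libraries. The sample with the lowest eosinophil sum, Ahrr-KO M3, was also the one most often lowest in the receptor rows.

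Markers of epithelium varied widely between the Ahrr-KO samples. All 8 were in the table, with Muc2 the most abundant (mean normalized count 3757), and their sum was 33644 in Ahrr-KO M3, 23597 in F3, 20801 in M1 and 16673 in M2, but 7926 in F1 and 5257 in F2. It ranged from 5877 in F2 to 19412 in F1 in WT and from 3980 in F2 to 7630 in M2 in Ahr-KO. WT F1 and Ahrr-KO M3, the samples of their groups most often lowest in the receptor rows, thus had the highest epithelial sums in WT and in Ahrr-KO. F2, the highest in many receptor rows, had the lowest epithelial sum in WT and in Ahr-KO. The part of epithelial RNA in the receptor differences was not tested. Muc2 was lower by -1.12 in Ahr-KO (SE 0.20, adjusted p = 0.00174 from limma), the 1 of 8 called, though not with all 18 samples in 1 fit, and in Ahrr-KO 0 of 8 were called.

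Neutrophil markers, all 10 in the table, were led by Retnlg, and their sum ranged from 24246 to 49009 in WT, from 56088 to 113776 in Ahr-KO and from 24445 to 45703 in Ahrr-KO. These sums were nearly all Retnlg, at 95.9 to 99.3% in Ahr-KO and 96.2 to 98.5% in WT. The other 9 markers summed to 688 to 1082 in WT, 756 to 3282 in Ahr-KO, overlapping with WT, and 1693 to 4765 in Ahrr-KO, all above WT. Of the 6 tested in Ahr-KO, 2 were called: Retnlg was higher by 1.21 (SE 0.24, adjusted p = 0.00453 from limma) and Cxcr2 by 0.65 (adjusted p = 0.0198). The defining genes Ly6g, Mpo, Camp and Elane were below the minimum mean in all fits. In Ahrr-KO 2 of 6 were called: S100a8 was higher by 2.06 (SE 0.22, adjusted p = 0.000667 from limma) and S100a9 by 2.10 (SE 0.19, adjusted p = 0.000220). The part of these markers in the receptor differences was not tested.

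All 12 macrophage and dendritic cell markers were in the table, led by Adgre1 (mean normalized count 7305), a gene that eosinophils also express, with sums of 8264 to 12107 in WT, 8988 to 11881 in Ahr-KO and 9156 to 13431 in Ahrr-KO. Without Adgre1 the sums were 1565 to 3186 in WT (median 2206), 1281 to 4778 in Ahr-KO (median 1969) and 1305 to 6765 in Ahrr-KO (median 3615). Csf1r was higher by 0.49 in Ahr-KO (adjusted p = 0.00693 from limma), the 1 of 10 tested that was called, and in Ahrr-KO 0 of 11 were called. B and plasma cell markers, 5 of 7 in the table, were led by Jchain (1432), and the highest sum was 1754 in WT, 739 in Ahr-KO and 5923 in Ahrr-KO. All 10 mast cell and basophil markers were in the table, led by Kit (131), and the sum did not exceed 538. T cell and innate lymphoid markers, 7 of 8 in the table and led by Cd4 (28.8), stayed at or below 163. No marker of any list was at 0 in all 18 samples, and the part of these cells in the receptor differences was not tested.

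Pancreatic acinar genes, all 8 in the table and led by Ctrb1 (228), had sums of 55.1 to 3789 in WT, 9.41 to 479 in Ahr-KO and 7.52 to 1626 in Ahrr-KO. Of the 6 tested in Ahr-KO, 3 were called, all lower: Ctrb1 (adjusted p = 0.0206 from limma), Cela2a (adjusted p = 0.0343) and Prss2 (adjusted p = 0.0445). The call of Ctrb1 was lost without WT F3, Ahr-KO F2 or Ahr-KO F3 (adjusted p of up to 0.0544). It was also lost with voom and without both F3 libraries, and the gene was not tested under the stricter minimum mean. Cela2a and Prss2 fell below the minimum mean, and were not tested, without WT F1, F2, F3 or M3. Among the other 8 such fits, the call of Cela2a was lost in 5 (Ahr-KO F1, F2, F3, M2 or M3) and that of Prss2 in 6 (these and Ahr-KO M1), with an adjusted p of up to 0.0854 and 0.105. Of 12 other alternatives, 5 left Cela2a uncalled or untested and 7 Prss2, voom among those for Prss2. Between the sexes H2-Ab1 was higher in males (1.34, adjusted p = 0.0426), and Ltf (-0.84, adjusted p = 0.0210) and Kit (-0.94, adjusted p = 0.0245) were lower. The H2-Ab1 call was lost in 13 of 18 fits without 1 sample, all but those without WT F1, WT F3, WT M1, Ahrr-KO F3 or Ahrr-KO M1, and the Kit call without WT F2 or Ahr-KO F1, M1, M2 or M3 (adjusted p of up to 0.101 and 0.0587). With no minimum mean the H2-Ab1 and Kit calls were lost, and without both F3 libraries those of H2-Ab1 and Ltf. Ltf and Kit were not tested under the stricter minimum mean. Over the other alternatives, some of them on other scales, Ltf ranged from -2.28 to -0.79 and Kit from -1.44 to -0.94.

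**Figure D4:**
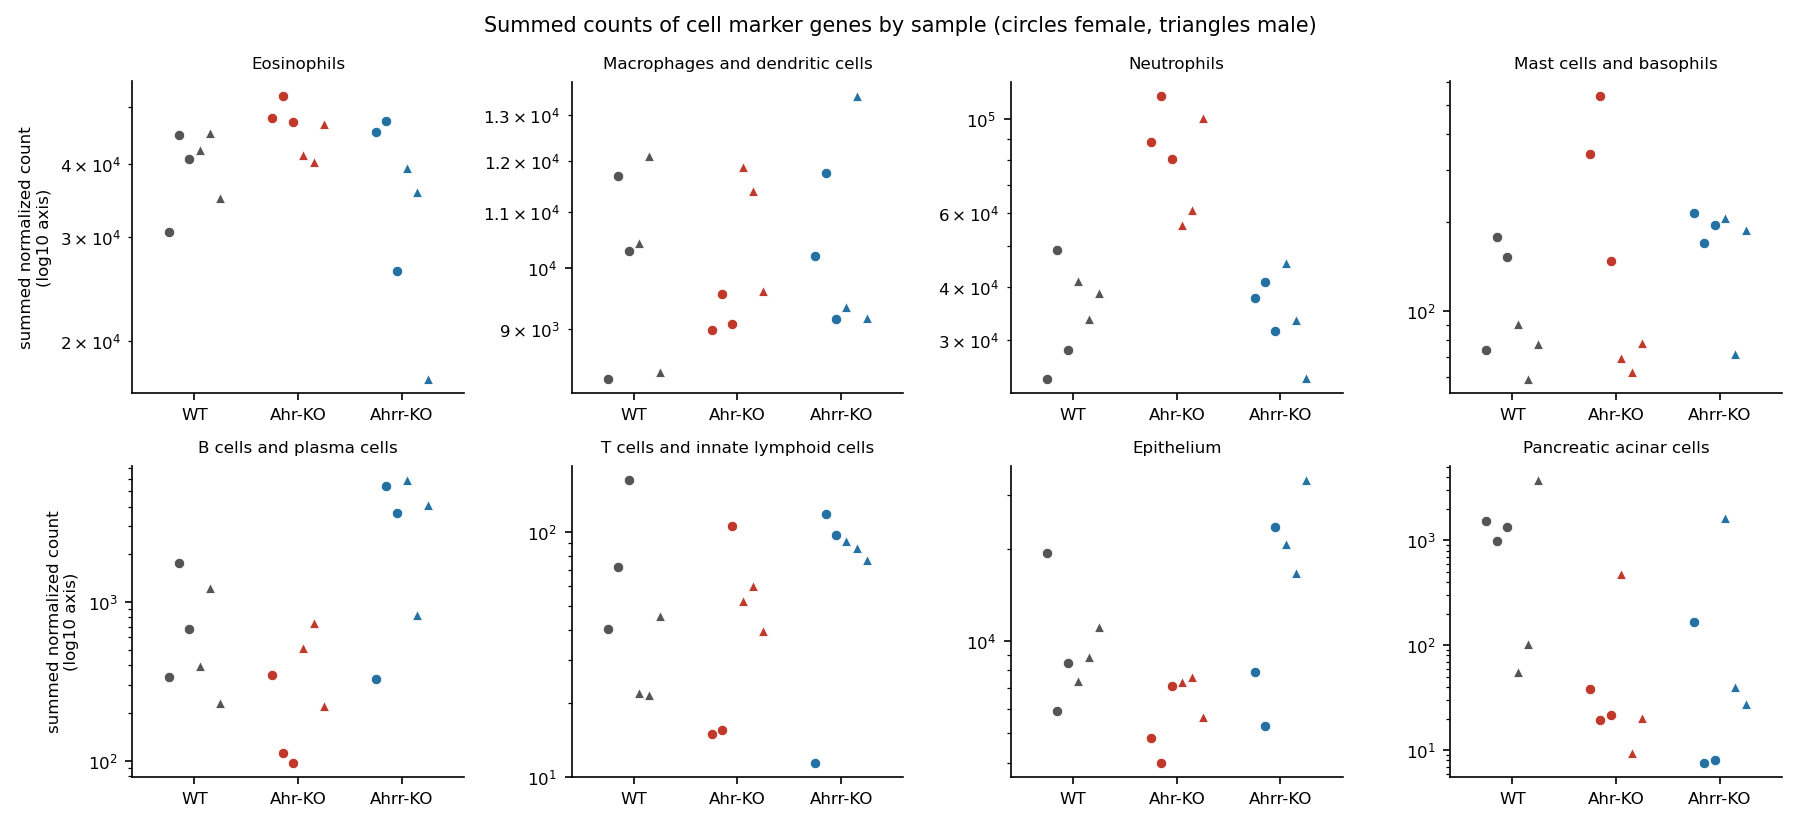
Summed normalized count (log10 axis) of each list of cell marker genes in the 18 samples by labelled genotype, with circles for females and triangles for males. The neutrophil sums, of which Retnlg makes up at least 95.9% in WT and Ahr-KO, are at least 56088 in Ahr-KO and at most 49009 in WT, and the epithelial sums reach 33644 in Ahrr-KO.

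Genes with the profile most like that of Gm14548 were sought among 11215 genes tested in both genotype comparisons, by the root mean square distance between profiles scaled to mean 0 and SD 1 over the 18 samples. The nearest were Dach1 (distance 0.262), Chn2 (0.270), Klra2 (0.280), Ikzf2 (0.282) and Serpina11 (0.285), each on a chromosome other than 7. Dach1, for example, ranged from 9.75 to 10.46 in WT, from 11.20 to 11.46 in Ahr-KO and from 9.36 to 10.31 in Ahrr-KO. The genes nearest to Pirb were Sgms1 (0.248), Gmip (0.252), Susd1 (0.258), Ssh2 (0.261) and Phf21a (0.270).

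Neighbours were counted within 500000 bases of the receptor genes, a window chosen after the values were seen. Around the chromosome 7 genes, 30 other rows lay in the window and 19 were tested in WT against Ahr-KO, with a median of 0.15. Of these, 4 were called by limma, all higher, where 8.84% of all genes were called and 5.16% called higher. Lilra6, which shares stretches with Gm14548 and Pirb, was among them, a call lost in 9 of 12 fits without 1 sample. The other 3 were not examined in this way. In Ahrr-KO 0 of 18 were called, at a median of -0.00. Around the CD300 genes 39 other rows lay in the window, 25 were tested, and 0 were called in either comparison, at medians of 0.07 in Ahr-KO and 0.08 in Ahrr-KO.

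The sequences upstream of the chromosome 7 genes are also alike. RefSeq gave promoter windows on GRCm38.p6, 250 bases before to 50 after the start site, for 8 of the 10 rows, not for Lilrb4a or the Entrez 18729 row. Over 247 aligned bases the Gm14548 window was 96.4% identical to that of Pirb, over 220 bases 95.0% to Pira2 and over 219 bases 95.4% to Lilra6. The 150 bases before the Gm14548 start site are shown with the matching stretches of the other genes, whose differences between Ahr-KO and WT were smaller. They are at chr7:3898142-3898291 for Gm14548, chr7:3720384-3720533 for Pirb, chr7:3845081-3845230 for Pira2 and chr7:3915533-3915682 for Lilra6, all on the minus strand. Capitals in the Gm14548 line mark the 4 bases that differ from all 3 others, and capitals in the other lines mark bases that differ from Gm14548.
Gm14548: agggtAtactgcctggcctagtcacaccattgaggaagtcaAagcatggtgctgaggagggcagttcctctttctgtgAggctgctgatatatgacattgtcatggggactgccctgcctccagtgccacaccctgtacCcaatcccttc
Pirb: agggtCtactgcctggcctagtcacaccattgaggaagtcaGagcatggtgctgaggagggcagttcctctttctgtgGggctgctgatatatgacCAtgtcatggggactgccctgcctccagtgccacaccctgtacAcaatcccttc
Pira2: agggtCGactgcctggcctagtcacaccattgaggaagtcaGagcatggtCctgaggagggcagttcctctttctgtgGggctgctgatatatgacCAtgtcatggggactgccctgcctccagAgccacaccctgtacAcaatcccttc
Lilra6: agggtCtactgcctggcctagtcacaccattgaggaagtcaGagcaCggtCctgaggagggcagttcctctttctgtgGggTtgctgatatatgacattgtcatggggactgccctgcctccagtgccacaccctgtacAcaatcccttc

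The core GCGTG of the element that the aryl hydrocarbon receptor binds was searched on both strands of these windows. It was found in 1 of the 8 receptor windows, that of Cd300lb, where it starts 35 bases before the start site, and in 32.4% of 32851 windows of the same length. The window of Ahrr held 3 matches, and those of Cyp1b1 and Tiparp, 2 other genes known to respond to the receptor, 1 each. The other 7 receptor windows held no match on either strand, and binding was not measured.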

How the data were processed

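RNA of sorted small intestinal eosinophils was sequenced in 18 samples with single-end reads of at least 75 bases. Alignment to GRCm38 and counting by the authors ran in nf-core/rnaseq, followed by DESeq2 in R 4.0.3, and the submitters' processing notes list STAR 2.5.2 and RSEM 1.3.0. The deposited values are log2 values, variance-stabilized by the authors with DESeq2. Inverting the transformation gave whole counts for 100% of values (tolerance 0.0001), used for depth, normalized counts and alternatives that name counts. Groups came from the sample labels. Genes with a mean at least 1 above the lowest value were fitted in limma 3.58.1 (R 4.3.3) with a trend and sex as covariate, called at a Benjamini-Hochberg adjusted p under 0.05, and the fit was tested on simulated data. Differences are knockout minus WT, or male minus female.

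Named are the receptors, Ahr, Ahrr, list members called in a genotype comparison, the 3 most abundant of each list (the most abundant for cell markers), and the 5 genes nearest to Gm14548 and to Pirb. Members called between the sexes, Siglecf, further markers and genes sharing sequence or position with a receptor were named after their values were seen. The members and lists were chosen with earlier results of these data known. A planned permutation test of the summed counts is not given, since the sum is over chosen members. Alternatives were other minimum means, scalings, scales, voom, no trend, no sex covariate, all 18 samples, a replicate block and leaving out each sample. Transcript lengths and sequences came from GENCODE and upstream sequences from RefSeq, both on GRCm38. Python 3.11.15, numpy 2.4.6, pandas 2.3.3, scipy 1.17.1, Biopython 1.88 and matplotlib 3.10.9 were used. Of the table's rows, 22685 matched a RefSeq gene.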

Additional observations from a re-analysis of the deposited data

Results flagged for a closer look

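Single samples that stood apart from the other 5 of their group (gap over range above Dixon's critical value for 6 samples) were found in 7 of 105 groups of values, where chance gives about 1 in 20. Pirb was 12.38 in Ahr-KO F2 against 11.98 to 12.12 in the other Ahr-KO samples. The number of genes with a count was 20244 in WT F3 against 15146 to 16526, and 19694 in Ahr-KO F3 against 15479 to 16704. The summed mast cell and basophil markers were 71.5 in Ahrr-KO M2 against 171 to 215. Those of T cells and innate lymphoid cells were 163 in WT F3 against 21.7 to 72.0. The acinar sums were 479 in Ahr-KO M1 against 9.41 to 38.5, and 1626 in Ahrr-KO M1 against 7.52 to 165. The cause was not tested.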

How the results depend on the processing

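The number of genes called in WT against Ahr-KO, 1003 as fitted, was 553 with all 18 samples in 1 fit and 586 without both F3 libraries (chosen after seeing the data), and 623 to 1124 when 1 sample was left out, lowest without Ahr-KO F1. In WT against Ahrr-KO, 9 as fitted, it was 4 with no minimum mean, median centring, log2(count + 1), voom or the replicate block, 5 with the stricter minimum or quantile normalization, 14 with all 18 samples, and 4 to 25 without 1 sample, highest without Ahrr-KO F1. Between the sexes, 351 as fitted, it was 163 with no minimum mean and 142 (without Ahr-KO M1) to 733 (without WT F1) when 1 sample was left out. With fewer samples or other genes tested the adjustment changes too; otherwise the cause was not tested. No receptor was called in WT against Ahrr-KO or between the sexes under any alternative run.

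Some differences changed sign. In WT against Ahrr-KO, leaving out 1 sample gave -0.29 to 0.12 for Lilrb4a and -0.24 to 0.0496 for Cd300lb. Between the sexes it gave -0.0201 to 0.13 for Pilra and -0.17 to 0.00898 for Cd300lb, and quantile normalization gave 0.000588 for Pirb in place of -0.16. The summed counts differed between Ahrr-KO and WT by -0.35 as a share of each sample's total count and by -0.41 to -0.18 without 1 sample. Deviations of samples with the same number correlated at -0.59 to 0.47 across genotypes, highest for F2 of WT and Ahr-KO. Such mixed values cannot settle whether some of these samples shared a batch, and no pairing is labelled. The replicate block gave 918 and 4 genes and called no receptor in Ahrr-KO. No block could be fitted between the sexes, where numbers run within a sex. Depth limits rows with low counts, such as the Entrez 18729 row with 23 to 74 counts in Ahr-KO.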
